A study of Mus musculus with 17 samples.

Results

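GABA8 is the largest of the 18 clusters that the authors of a mouse hypothalamus Drop-seq study named for GABA, and its cells are those to which the deposited annotation gives that name. It held 402 of the 14276 annotated cells that could be traced to 1 library, which is 2.78% of all annotated cells and 29.1% of the 1380 traced GABA cells. None of its cells was lost in the tracing. The other 17 GABA clusters held 978 such cells, and the next largest, GABA13, held 164. In Drop-seq, cells are caught in droplets with barcoded beads, and a unique molecular identifier (UMI) on each copied transcript lets a count stand for transcripts and not for copies.

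The hypothalamus was taken from 3 food-deprived mice, which had no food for 24 hours, and from 5 normal mice, which were fed normally. All mice were B6D2F1, the hybrid of a C57BL6 mother and a DBA2 father. Age, sex and the hour of collection are not given in the labels used here. The 17 libraries fall into 5 batches: batch 1 holds food-deprived replicate 1 and normal replicate 3, batch 2 holds food-deprived replicate 2 and normal replicate 4, and batches 0, 3 and 4 hold mice of 1 feeding state only. Each mouse is 1 replicate, and its libraries were summed.

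GABA8 cells came from every library. Food-deprived replicates 1 to 3 gave 61, 73 and 93 cells, and normal replicates 1 to 5 gave 3, 13, 54, 40 and 65 cells. Normal replicate 1, with 3 cells, was left out of all levels by mouse, which leaves 7 mice. Their summed GABA8 cells held between 26615 UMIs (normal replicate 2) and 283391 UMIs (food-deprived replicate 2). The median GABA8 cell held 2760.5 UMIs, and the median cell of the other GABA clusters held 4595. No GABA8 barcode occurred in another library. Of the 17 libraries, 8 carried Gapdh at 151 to 811 CPM (UMIs per 1000000 UMIs), here called retained, and 9 carried it at 4.36 to 8.53 CPM, here called depleted. Some ribosomal protein genes and Ppia followed the same split. Food-deprived replicate 3 and normal replicates 1, 2 and 5 had retained libraries only, normal replicate 3 depleted libraries only, and the other mice both.

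The suprachiasmatic nucleus, a small paired nucleus above the optic chiasm, is the central circadian clock of mammals, and its neurons are GABAergic. Its shell is known for neurons that make arginine vasopressin (AVP) and its core for neurons that make vasoactive intestinal peptide (VIP). In each neuron the transcription factors CLOCK and BMAL1 (the product of Arntl) bind E-box sequences and activate Per and Cry genes, whose products in turn repress them. Vasopressin is also made by magnocellular and parvocellular neurons of the paraventricular and supraoptic nuclei, which are glutamatergic.

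The markers given with the cluster were all present. Avp reached 11940 ± 5192 CPM in GABA8 and 25.1 ± 6.97 CPM in the other GABA clusters (mean ± SD, n = 7 mice). Gad2 and Gad1, which encode the GABA-synthesising enzymes, stood at 933 ± 147 and 647 ± 130 CPM in GABA8, against 953 ± 241 and 473 ± 111 CPM in the other GABA clusters. Slc32a1, the vesicular GABA transporter, stood at 402 ± 99.9 CPM in GABA8 and 361 ± 156 CPM elsewhere. The authors' cluster names were built from the expression of the same cells, so these and all other differences between GABA8 and other clusters are descriptions and carry no test.

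The sum of 15 suprachiasmatic marker genes was 16246 ± 5203 CPM in GABA8 and 998 ± 436 CPM in the other GABA clusters, and Avp alone makes up most of the first value. The 3 glutamate transporter genes together had 15.5 ± 19.9 CPM in GABA8 and 22.1 ± 9.92 CPM in the other clusters. Of the 6 markers of magnocellular and paraventricular neurons other than Avp, Otp, Sim1 and Trh had no UMI in GABA8, and the 6 together had 52.5 ± 27.7 CPM in GABA8 and 97.9 ± 66.8 CPM elsewhere. The 7 arcuate markers summed to 59.7 ± 20.1 CPM in GABA8 and 5565 ± 6356 CPM elsewhere, and the 7 astrocyte markers to 171 and 271 CPM. In normal replicate 2 the other GABA cells were 21 cells of 5 clusters, with the arcuate marker Npy at 12611 CPM. The 5 ependymal markers summed to 75.6 CPM in GABA8 and 20.3 CPM elsewhere, the 6 microglial markers to 27.3 and 11.2 CPM, and 4 of 5 pituitary and pars tuberalis markers had no UMI in GABA8. The 7 myelin genes summed to 704 ± 449 CPM in GABA8 and 528 ± 251 CPM elsewhere. Within GABA8 the myelin sum ranged from 185 to 1600 CPM in food-deprived mice and from 350 to 751 CPM in normal mice, so the groups overlapped, and its part in the results below was not tested.

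Avp was found in most but not all GABA8 cells. At least 1 Avp UMI was present in 282 of 402 cells, 70.1% (exact 95% binomial interval 65.4% to 74.6%). In the other GABA clusters the share was 12.5%, in MO, the myelinating oligodendrocytes, 8.80%, and in Astro, the astrocytes, 8.25%. These shares depend on depth, with a median of 4595 UMIs per cell in the other GABA clusters, 2195 in MO and 1300 in Astro. After every cell was thinned to 1000 UMIs, 63.1% of 388 GABA8 cells had an Avp UMI, against 3.04% of 921 other GABA cells, 4.22% of MO and 4.63% of Astro. The share in the other GABA clusters is therefore no higher than that in glia. The intervals cover counting error only.

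The level of Avp varied between mice within both feeding groups. Avp stood at 11297, 18822 and 7949 CPM in GABA8 of food-deprived replicates 1 to 3, and at 10145, 19061, 10932 and 5375 CPM in normal replicates 2 to 5. Normal replicate 3 was highest and normal replicate 5 lowest. In the other GABA clusters of the same mice Avp lay between 16.6 and 36.9 CPM. The mean within-mouse difference was 8.76 ± 0.64 on the log2 scale of CPM plus 1 (SD, n = 7).

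The promoter of Avp holds a canonical E-box, the sequence CACGTG to which CLOCK and BMAL1 bind, and so do those of Prok2, Cry1 and Per1, which in most or all mice were higher in GABA8 than in the other GABA clusters as a whole. They are shown because these genes encode an output peptide, another secreted signal and parts of the clock itself. The sequences are RefSeq promoters of build GRCm38.p6, 250 bases before to 50 bases after the gene's start, and capitals mark the motif, which reads the same on both strands.
Avp, chr2:130582539-130582838, minus strand: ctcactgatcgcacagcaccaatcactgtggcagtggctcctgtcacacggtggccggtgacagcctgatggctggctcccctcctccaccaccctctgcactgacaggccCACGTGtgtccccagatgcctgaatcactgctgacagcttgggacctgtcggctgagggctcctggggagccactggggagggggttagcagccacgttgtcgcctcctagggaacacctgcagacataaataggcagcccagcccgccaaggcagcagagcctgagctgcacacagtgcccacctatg
Prok2, chr6:99726343-99726642, minus strand: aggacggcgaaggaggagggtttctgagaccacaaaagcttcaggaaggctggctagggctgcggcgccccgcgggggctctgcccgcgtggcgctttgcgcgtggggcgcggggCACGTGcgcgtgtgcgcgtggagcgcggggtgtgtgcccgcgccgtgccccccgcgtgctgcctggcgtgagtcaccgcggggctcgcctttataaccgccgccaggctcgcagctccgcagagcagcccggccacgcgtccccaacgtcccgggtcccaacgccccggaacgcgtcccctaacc
Cry1, chr10:85185005-85185304, minus strand: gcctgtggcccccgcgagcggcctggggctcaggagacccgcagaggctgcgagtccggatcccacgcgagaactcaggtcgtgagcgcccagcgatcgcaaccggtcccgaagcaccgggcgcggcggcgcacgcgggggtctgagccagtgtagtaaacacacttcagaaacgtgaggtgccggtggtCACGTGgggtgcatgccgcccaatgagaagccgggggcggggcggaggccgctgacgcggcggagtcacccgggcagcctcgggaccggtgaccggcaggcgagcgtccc
Per1, chr11:69098699-69098998, plus strand: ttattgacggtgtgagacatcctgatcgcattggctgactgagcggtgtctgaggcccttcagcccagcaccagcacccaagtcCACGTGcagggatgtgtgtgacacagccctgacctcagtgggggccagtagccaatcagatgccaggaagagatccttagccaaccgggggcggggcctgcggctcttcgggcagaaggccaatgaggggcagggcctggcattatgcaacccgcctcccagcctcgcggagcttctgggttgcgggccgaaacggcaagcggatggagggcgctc
The motif starts 139 bases before the start of Avp, 135 before that of Prok2, 60 before that of Cry1 and 166 before that of this start of Per1. It was found in 7.15% of the 32851 promoters of the table, and in at least 1 promoter of 8.09% of the gene symbols. Of the lists used below, 5 of 12 suprachiasmatic peptide genes with an entry held it, 5 of 21 clock genes, 1 of 19 suprachiasmatic transcription factors and 0 of 15 suprachiasmatic signalling genes. The holders not printed were Cck, Nmu, Tac1, Tef, Bhlhe41, Ciart and Dlx2, and they went both ways. Cck was higher in GABA8 in 7 of 7 mice, Nmu and Bhlhe41 in 5 and Tef in 4, while Tac1 and Dlx2 were lower in 6. The promoters of Nms, Vipr2, Dbp and Nr1d1 and another listed start of Per1 were also read and hold no CACGTG in this window. A match or its lack describes these letters only, and the deposited counts were made on mm9, so no coordinate was carried between builds.

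Among other peptide genes, Nms and Cck were higher than in the other GABA clusters as a whole in every mouse. Nms, which encodes neuromedin S, a peptide made by suprachiasmatic neurons, stood at 624, 498 and 482 CPM in GABA8 of food-deprived mice and at 1202, 456, 733 and 318 CPM in that of normal mice. In the other GABA clusters it stood at 18.1, 7.89 and 22.1 CPM in food-deprived mice and at 0 to 4.72 CPM in normal mice. Cck, cholecystokinin, averaged 378 ± 131 CPM in GABA8 and 67.6 ± 45.1 CPM in the other clusters and was higher in 7 of 7 mice. Prok2, prokineticin 2, a secreted output signal of the clock, averaged 91.3 ± 48.1 CPM and 37.6 ± 26.6 CPM and was higher in 6 of 7 mice. By single clusters, GABA8 was the third for Prok2, with 81.8 CPM in its summed cells, against 588 CPM in GABA10 and 90.1 CPM in GABA13. Penk, proenkephalin, averaged 172 ± 120 CPM in GABA8 and 630 ± 485 CPM elsewhere. Vip was found in 18 GABA8 cells, 4.48% of them, and averaged 201 ± 258 CPM in GABA8 and 375 ± 315 CPM in the other clusters. Of the 2766 Vip UMIs in the other clusters 2762 were from GABA9, and GABA8 had the second highest level of the 18 GABA clusters, with 209 CPM in its summed cells, against 4.78 CPM or less in each of the rest.

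Of 4059 genes with a mean of at least 50 CPM over both cell groups, 10.1% were higher in GABA8 in every mouse and 13.8% lower in every mouse, with a median log2 difference of -0.10. Of the 14 suprachiasmatic peptide genes, 10 reached that level, of which 3 were higher in every mouse (Avp, Nms and Cck) and 4 lower (Sst, Gal, Nts and Cartpt), with a median of -1.72. Of 39 hypothalamic peptide genes, 17 reached it, of which 4 were higher and 8 lower, with a median of -3.99. The fourth higher gene was Vgf, at 1200 ± 319 CPM in GABA8 and 491 ± 456 CPM elsewhere.

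The genes with the lowest relative level included those of arcuate and other peptide neurons. Agrp, the agouti-related peptide of hunger neurons, averaged 1.32 ± 2.25 CPM in GABA8 and 1517 ± 2272 CPM in the other GABA clusters. Npy averaged 16.0 ± 16.7 CPM in GABA8 and 3553 ± 4113 CPM elsewhere, and Sst, somatostatin, 11.7 ± 18.4 CPM and 1371 ± 1127 CPM. Cartpt averaged 13.8 ± 15.2 CPM in GABA8 and 1148 ± 362 CPM elsewhere, Gal, galanin, 26.8 ± 22.6 CPM and 1750 ± 806 CPM, and Th, tyrosine hydroxylase, 2.80 ± 5.17 CPM and 257 ± 140 CPM. The others among the 10 lowest were Serpina3n, Crabp1, Ecel1 and Ghrh. Ghrh, growth hormone releasing hormone, had 0 UMIs in the 402 cells, which allows a level of up to 2.34 CPM and a share of up to 0.746% of cells (3 counts), and stood at 170 ± 200 CPM elsewhere. The SDs of Agrp, Npy and Ghrh in the other clusters exceed their means, and the mix of clusters in that sum differs between mice. In normal replicate 2, with 21 such cells, Agrp stood at 6564.5 CPM and Npy at 12611 CPM. In the other mice Agrp lay between 259 and 1538.5 CPM and Npy between 978 and 3324 CPM.

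**Figure D1:**
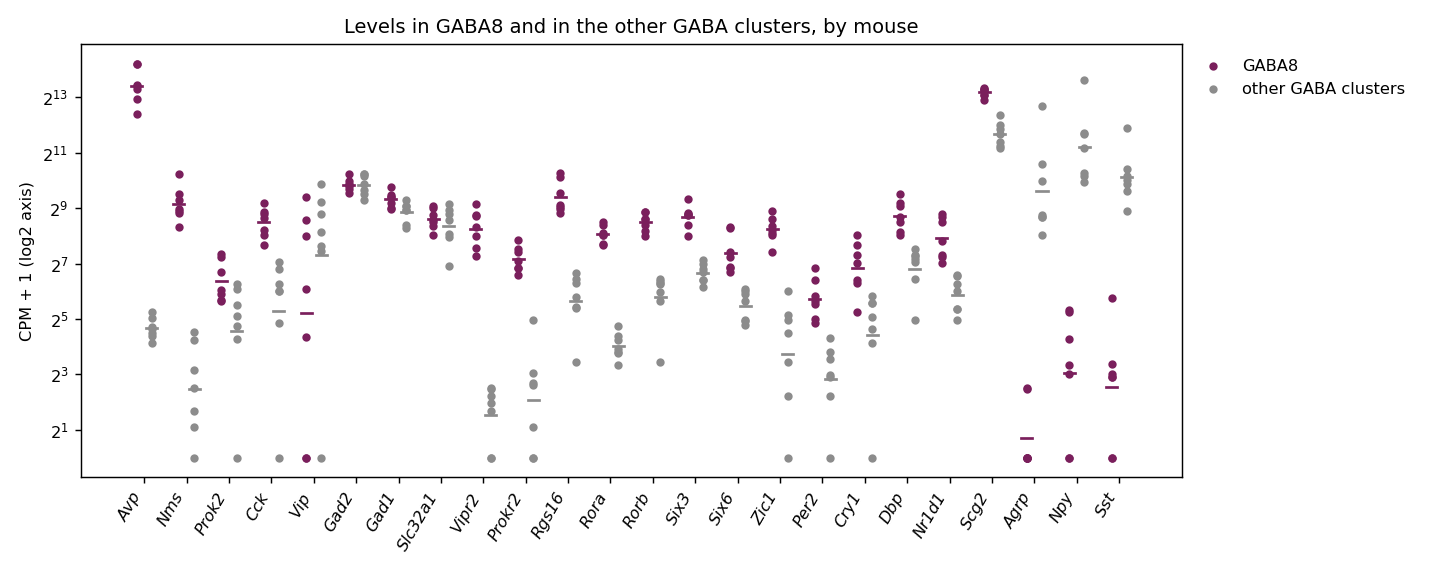
Level of 24 genes in GABA8 (purple) and in the other GABA clusters (grey), in CPM plus 1 on a log2 axis. Each point is 1 of 7 mice and each bar the mean of the log2 values. Avp lies at 5375 CPM or more in GABA8 in every mouse and at 36.9 CPM or less in the other clusters, while Gad2 and Slc32a1 overlap.

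Receptor and signalling genes known from the suprachiasmatic nucleus were among the 25 genes with the highest relative level. Vipr2, the receptor through which suprachiasmatic neurons respond to VIP, stood at 435, 258 and 190 CPM in GABA8 of food-deprived mice and at 564, 419, 315 and 156 CPM in that of normal mice. In the other clusters it reached at most 4.72 CPM in any mouse. In normal replicate 2 the other clusters had 0 CPM of Vipr2 and of Nms, so such ratios depend on the 1 CPM added. Prokr2, the receptor for prokineticin 2, averaged 149 ± 48.5 CPM in GABA8 and was lower elsewhere in 7 of 7 mice. Rgs16, a regulator of G protein signalling, averaged 735 ± 322 CPM and 58.8 ± 30.9 CPM, and the secreted C1q-like protein gene C1ql3 362 ± 82.0 CPM and 15.9 ± 9.195 CPM. Syt10, a synaptotagmin, averaged 473 ± 65.1 CPM in GABA8 and 73.2 ± 35.3 CPM elsewhere. Of the 15 suprachiasmatic signalling genes, 8 reached 50 CPM, of which 6 were higher in every mouse and 2 lower, with a median of 3.35. The lower genes were Adcyap1r1, the receptor for the peptide PACAP, at 15.7 ± 12.4 CPM in GABA8 and 88.2 ± 28.9 CPM elsewhere, and the potassium channel gene Kcnk2, at 12.5 ± 14.7 CPM in GABA8 and 142 ± 80.3 CPM elsewhere.

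Transcription factors of the suprachiasmatic nucleus followed the same pattern. Of 21 in the table, 11 reached 50 CPM, of which 9 were higher in every mouse and 1 lower, with a median of 1.56. The orphan receptor genes Rora and Rorb averaged 272 ± 59.6 and 371 ± 81.2 CPM in GABA8, against 16.1 ± 5.55 and 63.3 ± 26.6 CPM elsewhere. Six3 and Six6, homeobox genes of the ventral forebrain and eye field, averaged 424 ± 118 and 184 ± 93.3 CPM in GABA8, against 102 ± 24.4 and 46.3 ± 17.2 CPM elsewhere. Zfhx3 averaged 264 ± 83.2 CPM in GABA8 and 88.7 ± 28.04 CPM elsewhere, and Lhx1, a LIM homeobox gene needed for coupling in this nucleus, 92.8 ± 33.9 CPM and 49.9 ± 32.2 CPM. Isl1 was the lower one, at 6.55 ± 11.9 CPM in GABA8 and 181 ± 59.1 CPM elsewhere. Zic1 and Zic4, zinc finger genes on no list, averaged 313 ± 98.0 and 92.8 ± 28.7 CPM in GABA8, against 23.3 ± 22.1 and 4.38 ± 3.99 CPM elsewhere. In summed cells of single clusters, GABA8 had rank 3 among the GABA clusters for Six3 and Six6 and rank 4 for Lhx1. Six3 stood at 397 CPM in GABA8, 565 CPM in GABA9 and 836 CPM in GABA1. Six6 stood at 193 CPM in GABA8, 202 CPM in GABA18 and 230 CPM in GABA9. Lhx1 stood at 96.6 CPM in GABA8, 111 CPM in GABA17, 139 CPM in GABA18 and 764 CPM in GABA9. GABA8 had rank 1 for Rora, Rorb, Zic1 and Zic4, with Zic1 at 332 CPM against 300 CPM in GABA6.

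Clock genes were higher than in the other GABA clusters as a whole across both limbs of the loop. Of the 25 clock genes in the table, 15 reached 50 CPM, of which 12 were higher in every mouse and 0 lower, with a median of 1.20. Arntl, of the activating limb, averaged 83.3 ± 36.0 CPM in GABA8 and 17.1 ± 9.38 CPM elsewhere, and its partner Clock 58.6 ± 20.7 CPM and 30.3 ± 7.60 CPM. In the repressing limb Per1 averaged 79.2 ± 34.5 CPM in GABA8 and 33.4 ± 9.84 CPM elsewhere, Per2 57.8 ± 30.4 CPM and 8.53 ± 6.25 CPM, Cry1 136 ± 78.2 CPM and 31.9 ± 19.8 CPM, and Cry2 136 ± 36.5 CPM and 79.8 ± 31.3 CPM. Among the genes that the loop drives, Dbp averaged 453 ± 174 CPM in GABA8 and 126 ± 51.7 CPM elsewhere, Hlf 377 ± 79.5 CPM and 97.3 ± 30.3 CPM, Nr1d1 269 ± 134 CPM and 62.5 ± 26.2 CPM, and Nr1d2 121 ± 42.8 CPM and 51.9 ± 16.6 CPM. Fbxl21, which encodes an F-box protein that acts on cryptochromes, averaged 55.0 ± 27.1 CPM in GABA8 and 8.30 ± 6.14 CPM elsewhere. Tef, Bhlhe40 and Csnk1d lay on both sides across mice. Clock, Per2 and Fbxl21 were higher in 7 of 7 mice but lie below 50 CPM as a mean over both cell groups, so they are outside these counts. Rora, Rorb, Nr1d1 and Nr1d2 are counted here and among the transcription factors above, so the 2 counts are not independent.

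The machinery that makes and packs peptides was higher in GABA8 for some genes and lower for others. Of 18 such genes, 17 reached 50 CPM, of which 9 were higher in every mouse and 4 lower, with a median of 0.51. The granule protein gene Scg2 averaged 9343 ± 985 CPM in GABA8 and 3397 ± 1053 CPM elsewhere, the convertase gene Pcsk2 677 ± 89.9 CPM and 182 ± 22.6 CPM, and Chga 1151 ± 152 CPM and 418 ± 103 CPM. Cpe, Pam, Chgb, Vgf, Ptprn and Cadps2 were also higher in every mouse. Pcsk1n, an inhibitor of the convertase PCSK1, was lower, at 1734 ± 490 CPM in GABA8 and 3161 ± 525 CPM elsewhere, as were Scg3, Resp18 and Nucb2.

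Receptor subunits for GABA and glutamate were lower on balance. Of 29, 16 reached 50 CPM, of which 0 were higher in every mouse and 5 lower, among them Gabra2, Gabra5, Gabrg1 and Gria2, with a median of -0.72. Gabra5 averaged 7.85 ± 7.24 CPM in GABA8 and 111 ± 25.8 CPM elsewhere, and Gria2, an AMPA receptor subunit, 624.5 ± 132 CPM and 950.4 ± 186 CPM. Of 7 genes of GABA synthesis, transport and removal, 5 reached 50 CPM, of which 2 were higher in every mouse, Gad1 among them, and 0 lower, with a median of 0.27. Among 26 cation channel genes, 8 reached 50 CPM, of which the sodium leak channel gene Nalcn was higher (92.1 ± 14.3 CPM in GABA8 and 58.1 ± 14.7 CPM elsewhere) and 2 lower, Kcnip4 and Cacna2d2, with a median of -0.21.

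Calbindin and calretinin genes differed in direction. Of 9 calcium-binding protein genes, 7 reached 50 CPM, of which Calb1 was higher in every mouse (337 ± 64.9 CPM in GABA8 and 159 ± 66.2 CPM elsewhere) and 3 lower, Hpca, Hpcal1 and Ncald, with a median of -1.14. Calb2 averaged 87.6 ± 50.2 CPM in GABA8 and 115 ± 35.9 CPM elsewhere. Of 26 hormone and feeding receptor genes, 4 reached 50 CPM, of which the adiponectin receptor gene Adipor2 was higher (112 ± 47.2 and 37.7 ± 8.61 CPM) and the glucocorticoid receptor gene Nr3c1 lower in every mouse (46.0 ± 28.9 and 175 ± 57.0 CPM), with a median of 0.06.

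Immediate early genes, which neurons switch on during activity and also during tissue dissociation, split. Of 20, 12 reached 50 CPM, of which 2 were higher in every mouse and 3 lower, with a median of -0.11. Fosb averaged 1110 ± 343 CPM in GABA8 and 551 ± 164 CPM elsewhere, and Jund 1145 ± 678 CPM and 570 ± 349 CPM. Junb averaged 105 ± 51.4 CPM in GABA8 and 478 ± 157 CPM elsewhere, and Egr1 386 ± 242 CPM and 923 ± 469 CPM. Egr4 was lower as well, and Fos, at 2205 ± 630 and 1816 ± 360 CPM, was higher in 5 of 7 mice. Of 15 heat shock genes, 12 reached 50 CPM, of which 0 were higher in every mouse and 3 lower (median -0.38), and of 22 unfolded protein response genes 17 did, of which 3 were higher and 0 lower (median -0.01). Of 17 glucocorticoid-induced genes 6 reached it, of which 1 was higher and 2 lower (median -0.59), of 21 oxidative phosphorylation genes 21 did, of which 0 were higher and 10 lower (median -0.39), and of the 8 genes that follow the library type 7 did, with 0 on either side (median -0.07).

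Among the 25 genes with the highest relative level that are on no list, Nnat was the most abundant. Nnat, neuronatin, an imprinted gene of the endoplasmic reticulum, averaged 8397 ± 2657 CPM in GABA8 and 733 ± 325 CPM elsewhere. Igfbp5, a binding protein for insulin-like growth factors, averaged 707 ± 121 CPM in GABA8 and 56.1 ± 27.6 CPM elsewhere, and Ndrg1 395 ± 72.2 CPM and 42.9 ± 12.9 CPM. Creb3l1, a membrane-bound transcription factor that activates Avp transcription in rats, averaged 67.6 ± 40.5 CPM in GABA8 and 5.44 ± 2.92 CPM elsewhere. The others were Prr5l, Fam122b, Ctla2a, Chek2, Rasa4, Plcd4, Ccdc134, Palld, B3gat2 and Plch2, at 51.2 to 211 CPM in GABA8. In all, 213 of 3960 genes at 50 CPM or more in GABA8 (5.38%) were at least 2-fold higher on average and higher in every mouse, and 323 of 4075 genes at that level elsewhere (7.93%) were at least 2-fold lower and lower in every mouse.

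Among the 13 other neuronal clusters with at least 50 cells, GABA9 was most like GABA8 by its profile over 10538 genes (Pearson r = 0.874 on log2 of CPM plus 1), followed by GABA13 (0.868) and GABA15 (0.845). The clusters share mice and libraries, and differ in depth. GABA9, with 68 cells, is the cluster of Vip: it had Vip at 11428 ± 7515 CPM (n = 6 mice with at least 5 of its cells), and GABA8 201 ± 258 CPM (n = 7 mice). Both carried the suprachiasmatic genes Six3, Six6, Rgs16 and Syt10, and also Igfbp5, which is on no list, at levels whose SDs overlapped. Syt10, for instance, averaged 473 ± 65.1 CPM in GABA8 and 709 ± 268 CPM in GABA9, Six6 184 ± 93.3 and 220 ± 79.3 CPM, and Igfbp5 707 ± 121 and 689 ± 247 CPM. By summed cells GABA9 was also second after GABA8 among the GABA clusters for Per2, Cry1, Dbp, Nr1d1 and Hlf, but of rank 6 for Arntl. Nr1d1 averaged 269 ± 134 CPM in GABA8 and 219 ± 171 CPM in GABA9, Cry1 136 ± 78.2 and 104 ± 105 CPM, and Dbp 453 ± 174 and 243 ± 179 CPM.

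GABA8 and GABA9 parted on other genes. Vipr2 averaged 334 ± 147 CPM in GABA8 and 53.3 ± 36.5 CPM in GABA9, Prokr2 149 ± 48.5 and 5.88 ± 9.23 CPM, and Cck, with 521 UMIs in GABA8, had 1 UMI in GABA9. Nms averaged 616 ± 290 CPM in GABA8 and 175 ± 123 CPM in GABA9, Rora 272 ± 59.6 and 104 ± 38.0 CPM, and Rorb 371 ± 81.2 and 145 ± 93.3 CPM. Lhx1 went the other way, with 92.8 ± 33.9 CPM in GABA8 and 786 ± 273 CPM in GABA9, and Grp, gastrin-releasing peptide of the nucleus core, had 10.1 ± 13.5 and 974 ± 817 CPM. Thinned to 1000 UMIs, 9.02% of GABA8 cells and 56.9% of GABA9 cells had an Lhx1 UMI, and 26.0% and 15.4% an Nms UMI.

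GABA13 and GABA15 lacked Nms and had little or no Vipr2, while GABA13 was close to GABA8 in Cck and Prok2. Cck averaged 378 ± 131 CPM in GABA8 and 405 ± 397 CPM in GABA13, and Prok2 91.3 ± 48.1 and 88.1 ± 37.3 CPM. GABA13 had Gal at 7475 ± 3853 CPM and GABA8 26.8 ± 22.6 CPM, and Nms had 0 UMIs in GABA13 and in GABA15. Vipr2 had 2 UMIs in GABA13 and 0 in GABA15, against 394 in GABA8. Glu14, the glutamatergic cluster with 51 cells and the highest Avp, had Avp at 81685 ± 37743 CPM and Oxt, oxytocin, at 22619 ± 22158 CPM (n = 5 mice), while GABA8 had Oxt at 50.3 ± 28.5 CPM. Slc17a6, the glutamate transporter gene of hypothalamic neurons, stood at 12.1 ± 15.8 CPM in GABA8 and 260 ± 99.0 CPM in Glu14. Vipr2 had 1 UMI in Glu14, and Six3, Six6 and Lhx1 had 1 UMI each.

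**Figure D2:**
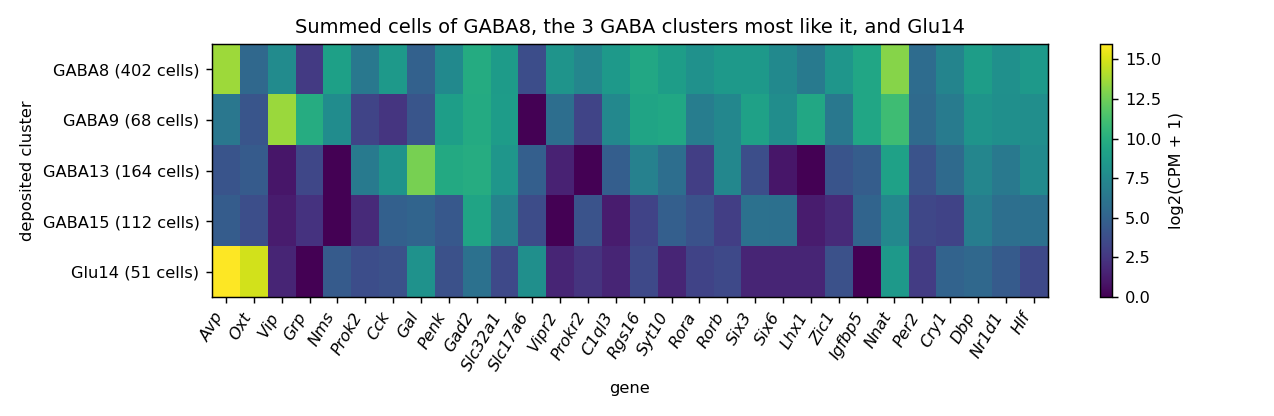
Level of 30 genes in the summed cells of GABA8, of the 3 GABA clusters most like it and of the Avp-richest glutamatergic cluster, Glu14, as log2 of CPM plus 1 (colour). GABA8 and GABA9 both hold Six3 and Six6 and part on Avp, Vip, Lhx1, Rora, Vipr2 and Cck, and Glu14 has Avp and Oxt with 1 UMI each of Six3 and Six6.

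Within GABA8, Avp spread widely between cells. The median cell held 8 Avp UMIs, the highest 646, and 120 cells held 0. The 10% of cells with the most Avp held 57.9% of the 16567 Avp UMIs. At 20 or more Avp UMIs per 10000 UMIs of the cell, 222 cells (55.2%) were Avp-rich, and at 1 Avp UMI or fewer 147 cells (36.6%) were Avp-poor, which leaves 33 between. The limits were chosen after the distribution was seen, and what follows is description. The median Avp-rich cell held 2753.5 UMIs and the median Avp-poor cell 2720. Within mice, Avp-rich cells had the lower median in 5 of the 6 mice compared below, for instance 3365 against 4382 UMIs in normal replicate 3, and the part of this difference in depth was not tested. Avp-rich cells made up 47.5%, 65.8% and 54.8% of GABA8 in food-deprived replicates 1 to 3 and 53.8%, 63.0%, 60% and 41.5% in normal replicates 2 to 5, and both kinds were found in every mouse. By the same limit 1 of 978 cells of the other GABA clusters was Avp-rich (0.102%), 6 of 3501 MO cells (0.171%) and 8 of 1140 Astro cells (0.702%).

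**Figure D3:**
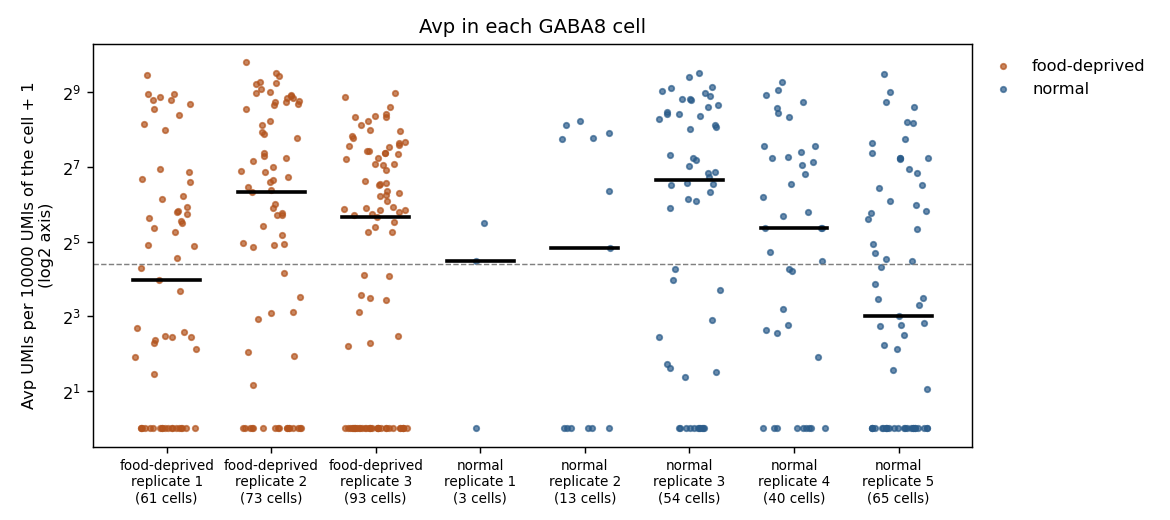
Avp UMIs per 10000 UMIs in each GABA8 cell, plus 1, on a log2 axis, by mouse. Points are cells, bars medians, and the dashed line the limit of 20 per 10000 for Avp-rich cells. Each mouse with at least 13 cells holds both cells without Avp and cells with high Avp.

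Avp-poor cells carried other peptide genes. In the 6 mice with at least 10 cells of each kind, Cck was lower in Avp-rich than in Avp-poor cells in 6 of 6, with 19.3 to 277 CPM in Avp-rich cells and 308 to 1126 CPM in Avp-poor cells (levels computed without Avp). Penk was likewise lower in 6 of 6, with 16.3 to 154 CPM and 116 to 759 CPM. Their mean log2 differences on CPM plus 10 were -2.29 ± 1.20 and -2.09 ± 1.05 (SD, n = 6). The vesicle protein gene Rph3a (-2.25 ± 1.32), the calcium sensor gene Vsnl1 (-1.88 ± 1.01) and the adhesion gene Alcam (-1.39 ± 0.42) were lower in 6 of 6 as well, and Calb2 in 5 of 6 (-1.40 ± 1.32). Vip was found in 1.80% of Avp-rich and 8.16% of Avp-poor cells and varied most between mice. In cells thinned to 1000 UMIs, 7.62% of 210 Avp-rich and 26.9% of 145 Avp-poor cells had a Cck UMI, and 6.67% and 20.7% a Penk UMI.

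Avp-rich cells carried more of a second set. Nnat was higher in 6 of 6 mice, with 7797 to 17082 CPM in Avp-rich cells and 3047 to 9127 CPM in Avp-poor cells. S100a10, which encodes a binding partner of annexin A2, was higher in 6 of 6 mice (1.89 ± 0.54), as were the transcription factor gene Mef2c (1.92 ± 1.31), Chodl (1.36 ± 0.94) and the stress-inducible factor gene Atf3 (2.43 ± 0.89). Prok2 and Nms were higher in 5 of 6 (1.37 ± 1.09 and 0.95 ± 1.00). Over 3996 genes at 50 CPM or more, 128 (3.2%) were higher and 138 (3.45%) lower in Avp-rich cells in every mouse. Of the genes on one side in every mouse, Cck, Rph3a, Penk and Vsnl1 had the largest mean differences among the lower. Atf3, Mef2c and S100a10 had the largest among the higher. Atf3, Rph3a and Vsnl1 were named for that reason, and Alcam, Chodl, Mef2c and S100a10 are on no list. These ranks come from the same split and are no separate support.

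Genes that were higher in GABA8 than in the other GABA clusters as a whole, some of them shared with GABA9 or other single clusters, were present in both kinds of cell. Vipr2 stood at 332 CPM in the summed Avp-rich cells and 282 CPM in the Avp-poor cells, Six3 at 420 and 399 CPM, Zic1 at 353 and 330 CPM, and Igfbp5 at 766 and 695 CPM. Others of these genes differed more. Rorb stood at 458 and 276 CPM, C1ql3 at 449 and 301 CPM, Rora at 322 and 227.5 CPM, and Plcd4 at 169 and 60.5 CPM. Each of these 4 was higher in Avp-rich cells in 5 of 6 mice, while Prokr2, at 149 and 179.5 CPM, was higher in 2 of 6. Rgs16 stood at 753 CPM in Avp-rich and 820 CPM in Avp-poor cells, Dbp at 476 and 472 CPM, and Nr1d1 at 245 and 265 CPM. Cry1 was higher in Avp-rich cells in 5 of 6 mice (0.68 ± 0.38), as was Per2 (0.90 ± 1.05), while Per1 was higher in 2 of 6. Gad2 stood at 800 CPM in Avp-rich and 1073 CPM in Avp-poor cells.

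**Figure D4:**
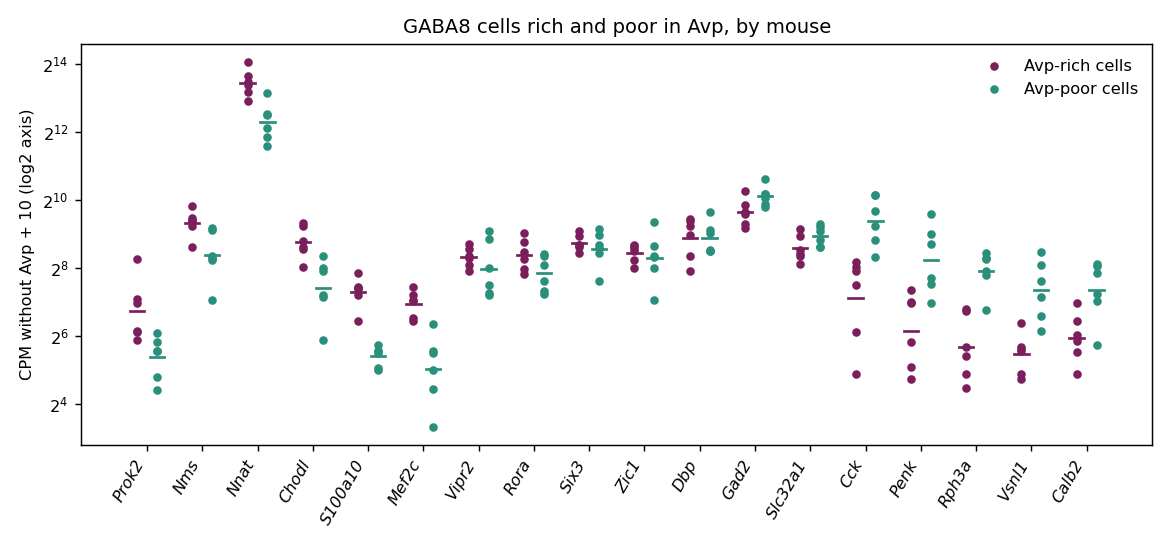
Level of 18 genes in Avp-rich (purple) and Avp-poor (green) GABA8 cells of the 6 mice with at least 10 of each, in CPM computed without Avp, plus 10, on a log2 axis; bars are means of the log2 values. Cck, Penk, Rph3a and Vsnl1 are lower and Nnat, S100a10 and Mef2c higher in Avp-rich cells of each of the 6 mice. The ranges over mice of Penk, Rph3a, Vsnl1 and Nnat still overlap. Vipr2, Six3, Zic1 and Dbp are higher in Avp-rich cells in some mice and lower in others.

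The share of GABA8 among GABA cells was compared between feeding states. It was 19.4%, 33.8% and 43.1% in food-deprived replicates 1 to 3, and 38.2%, 27%, 31.7% and 24.9% in normal replicates 2 to 5. The lowest and the highest value were both from food-deprived mice, so the groups overlapped. The means were 32.1% ± 11.9 (SD, n = 3) and 30.5% ± 5.91 (SD, n = 4), a difference of 1.60 percentage points, by a two-sided exact permutation test p = 0.857. The 35 splits of these mice allow no p below 0.0571. The difference was -7.63 points within batch 1 and 2.05 points within batch 2, and its direction turned with other denominators and without food-deprived replicate 3 (-3.89 points) or normal replicate 5 (-0.255 points).

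Food-deprived and normal mice were then compared gene by gene in the summed GABA8 cells, in CPM normalised by TMM factors, with edgeR's quasi-likelihood test over 3 food-deprived and 4 normal mice. Of 4476 genes tested, 0 passed a Benjamini-Hochberg adjusted p of 0.05 (0%), and 110 had an unadjusted p under 0.05 (2.46%). DESeq2 called 0 as well, with 29 at an unadjusted p under 0.05. Avp averaged 14446 ± 6316 CPM in food-deprived mice and 12839 ± 6480 CPM in normal mice (log2 difference 0.17 ± 0.34 SE, edgeR adjusted p = 0.9995, as for every gene named here from this comparison). Its values were 12851, 21407 and 9082 CPM in food-deprived mice and 10988, 21722, 12398 and 6249 CPM in normal mice, and the groups overlapped. In these sums taken alone, fewer cells with a transcript and less of it per cell cannot be told apart. For Avp the shares of Avp-rich cells by mouse, given above, overlapped between the feeding groups as well.

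None of the lists had a member past the threshold. Among clock genes 19 were tested, of which 13 were below and 6 above 0, with a median of -0.18, against 0.01 over all genes, and 0 had an unadjusted p under 0.05. Over all 4476 genes tested, 2211 were below 0 and 2265 above. Per2 stood at 35.0, 56.2 and 31.8 CPM in food-deprived mice and 122, 62.9, 94.8 and 52.8 CPM in normal mice, with overlap. The Per2 difference was -0.80 ± 0.41 SE (edgeR adjusted p = 0.9995 and unadjusted p = 0.0721). Dbp averaged 467 ± 181 CPM in food-deprived and 551 ± 233 CPM in normal mice. Of 7 suprachiasmatic peptides tested 6 were above 0 (median 0.19), of 9 suprachiasmatic transcription factors 3 (median -0.04) and of 6 suprachiasmatic signalling genes 3 (median 0.05). Six6 had an unadjusted edgeR p of 0.0241, with 360, 128 and 360 CPM in food-deprived mice and 163, 194, 117 and 136 CPM in normal mice.

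Of 12 immediate early genes 10 were below 0, that is lower in food-deprived mice, with a median of -0.28, against 2211 of 4476 over all genes. Fosb stood at 1065, 1104 and 672 CPM in food-deprived mice and 1831, 1274, 1495 and 1334 CPM in normal mice, without overlap. The difference was -0.62 ± 0.22 SE (edgeR adjusted p = 0.9995 and unadjusted p = 0.0128). Nr4a1, a nuclear receptor gene, was the other member with an unadjusted edgeR p under 0.05, also lower (-1.03 ± 0.47 SE). Fos overlapped, at 2456 ± 650 CPM in food-deprived and 2550 ± 922 CPM in normal mice. Of 17 unfolded protein response genes 16 were below 0 (median -0.16), of 12 heat shock genes 7 (median -0.15) and of 6 glucocorticoid-induced genes 4 (median -0.21). Among the heat shock genes Hspa1a was above 0, by 2.10 ± 0.77 SE (edgeR adjusted p = 0.9995 and unadjusted p = 0.0161), with overlapping groups. Of 17 peptide processing genes 10 were below 0 (median -0.01), of 12 receptor subunits 9 (median -0.12), of 10 channel genes 7 (median -0.28), of 3 hormone and feeding receptor genes 2 (median -0.09) and of 5 GABA genes 1 (median 0.08). Of 8 hypothalamic peptides 6 were above 0 (median 0.18), of 21 oxidative phosphorylation genes 15 (median 0.09), of 4 calcium-binding protein genes 3 (median 0.13) and of 8 genes of the library types 6 (median 0.08). Members share mice and move together, and these counts carry no test.

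Groups did not overlap for 193 of the 4476 genes (4.31%). The 10 with the smallest p among them, none of them called, had unadjusted edgeR p-values from 0.00292 to 0.00969. In food-deprived mice 7 were lower (among them Nbea, Bptf, Ing2, Mll3, A630007B06Rik and Samd4b) and 3 higher (Cdc40, Rsbn1 and Psen2). Nbea, which encodes a vesicle trafficking protein, stood at 85.0, 132 and 116 CPM in food-deprived mice and 244, 199, 204 and 211 CPM in normal mice.

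A fit with batch as a replicate block, which rests on the pairs of batches 1 and 2, called 22 genes, all higher in food-deprived mice (0.492%). Of these, 20 are Gapdh, Ppia and 18 ribosomal protein genes, which follow the library type: normal replicate 3 had depleted libraries only, while its partner food-deprived replicate 1 had 1 retained library. The other genes were Vip and Hspa1a. With depleted libraries alone and the block, those 2 were called. That fit holds only food-deprived replicates 1 and 2 and normal replicates 3 and 4, the same pairs. It leaves little spread between mice to measure and is no separate check. Vip in GABA8 rested on 4, 2 and 5 cells in food-deprived replicates 1 to 3, with 58, 19 and 83 UMIs, and on 0, 0, 1 and 6 cells in normal replicates 2 to 5, with 0, 0, 3 and 105 UMIs.

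The response of GABA8 was set against that of the other GABA clusters in the same mice, as an interaction in edgeR with the mouse as a block. Of 5951 genes 1 was called (0.0168%), Hspa1a, which encodes an inducible heat shock protein. Its difference was 2.59 ± 0.38 SE on the log2 scale (edgeR adjusted p = 0.000514), with 206 genes at an unadjusted p under 0.05. Hspa1a stood at 496, 93.3 and 25.6 CPM in GABA8 of food-deprived mice and at 76.4, 20.3, 49.2 and 72.4 CPM in GABA8 of normal mice. In the other GABA clusters it stood at 288, 131 and 43.9 CPM in food-deprived mice and at 441, 106, 274 and 339 CPM in normal mice. GABA8 was thus below the other clusters by 2.21 to 2.52 log2 units in each normal mouse, and between 0.76 below and 0.78 above them in food-deprived mice.

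The call rested on few counts. Hspa1a had 103, 24 and 5 UMIs in GABA8 of food-deprived mice, held by 15, 7 and 3 cells, and 2, 4, 7 and 10 UMIs in GABA8 of normal mice, held by 2, 4, 4 and 6 cells. Without food-deprived replicate 1, in which 1 cell held 31 UMIs, the difference was 1.80 (edgeR adjusted p = 0.674). It was 0.28 when retained libraries were used alone, and DESeq2 gave an adjusted p of 0.0589. The fit in retained libraries also lacks food-deprived replicate 1, whose retained library held 9 GABA8 cells, under the minimum of 10. It is therefore no separate check of the library type. Hspa1a has a near-identical copy, Hspa1b, and reads may be split between them. The other GABA cells are a mixture whose clusters differ in number between mice, and that part was not tested.

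No other gene reached the threshold, and the next smallest p was that of Nms. The Nms difference was -2.44 ± 0.54 SE (edgeR adjusted p = 0.227), with GABA8 above the other clusters by 5.09, 5.88 and 4.42 log2 units in food-deprived mice and by 7.83, 7.09 and 6.71 in normal replicates 3 to 5, without overlap. In normal replicate 2 the other clusters had no Nms UMI. The Nms levels within GABA8 overlapped, at 609 ± 88.0 CPM in food-deprived and 756 ± 412 CPM in normal mice, and those of the other clusters were 8.30 to 23.9 CPM in food-deprived and 0 to 4.89 CPM in normal mice. In the other GABA clusters 48 of 54 Nms UMIs were from GABA9. GABA9 made up 6.30%, 6.29% and 17.1% of the other GABA cells in food-deprived mice and 0%, 5.48%, 6.98% and 4.08% in normal replicates 2 to 5, and its part in this difference was not tested. Nts, neurotensin, had a difference of -6.04 ± 1.41 SE (edgeR adjusted p = 0.289) with overlapping mice. The Dbp difference was -0.84 ± 0.25 SE (edgeR adjusted p = 1.0), with GABA8 above the other clusters by 1.98, 1.04 and 1.02 in food-deprived mice and by 2.94, 2.28, 2.08 and 2.24 in normal mice. Gadd45a, Fancl, Chordc1, Pin4, Gpc3, Hmgn5 and Cdc40 complete the 10 genes with the smallest p whose mice did not overlap, and none was called. The Avp difference was 0.12 ± 0.37 SE.

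**Figure D5:**
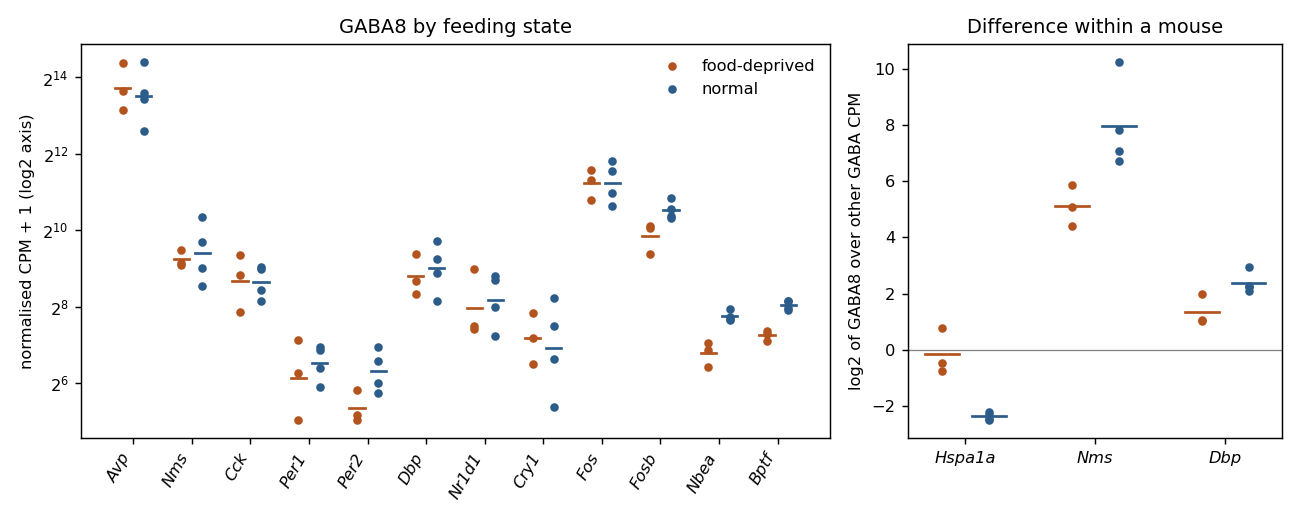
Left, level of 12 genes in GABA8 of 3 food-deprived (orange) and 4 normal (blue) mice, in normalised CPM plus 1 on a log2 axis, with bars at the mean of the log2 values; Nbea, Bptf and Fosb do not overlap, and 0 genes pass the adjusted threshold. Right, log2 of the level in GABA8 over that in the other GABA clusters of the same mouse, for Hspa1a, which passed the interaction test, and for Nms and Dbp, which did not; in normal replicate 2 the other clusters had no Nms UMI, so that point depends on the pseudocount.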

How the data were processed

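Drop-seq libraries of dissected, dissociated mouse hypothalamus were analysed. The values deposited by the authors are raw UMI counts per gene and cell, whole numbers with no normalization, and cluster names per cell. The build is mm9, per the submitters' processing notes; the aligner and counter were not given in the sources used here. The authors' cluster names were used as deposited, and no doublets were called here. Cells were joined to libraries by batch, feeding state and barcode; 14276 were joined, and 161 whose barcode also occurs in another library of that batch and state were left out, none of them GABA8.

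Counts were summed per mouse over GABA8 and over the other GABA cells, in mice with at least 10 of each. Levels are CPM of plain totals, or of TMM-scaled totals in the tests; log2 ratios use a pseudocount of 1 CPM (10 in the Avp split). edgeR 4.0.16 (R 4.3.3) fitted TMM factors, filterByExpr and the two-sided quasi-likelihood test without batch, with Benjamini-Hochberg adjustment over all tested genes at 0.05; DESeq2 1.42.0 was an alternative. The interaction took the mouse as a block. Shares of GABA cells used mice with at least 20 and a two-sided exact permutation test (scipy 1.17.1). Cells were thinned to 1000 UMIs for shares with a UMI; 14 GABA8 cells were shallower. edgeR was tested on simulated data. Genes were named by rule: Avp, Gad1, Gad2, Slc32a1, Gapdh and Ppia, the 25 highest and 10 lowest by ratio, list members at 50 CPM or more, and called genes or the 10 smallest p without overlap. The members and lists were chosen with earlier results of these data known, and the Avp-rich and Avp-poor limits after the cells were seen. Nothing in the labels used here says how far replicates share housing or day beyond the batch, and p-values measure the spread between mice. Results for some genes that the naming rule covers are not reported here.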

Additional observations from a re-analysis of the deposited data

Results flagged for a closer look

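The Vip level of normal replicate 5 in GABA8, 791 normalised CPM, lay far above the other normal mice, at 0, 0 and 21.9 CPM. It came from 6 of 65 cells, 1 of which held 66 of the 105 UMIs. Among 14 groups of 4 normal mice examined in this way 1 stood out, and chance flags about 1 in 20.

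The Hspa1a response differed between GABA8 and the other GABA clusters, by 2.59 log2 units in the interaction test of edgeR (adjusted p = 0.000514). Its values by mouse, and those without food-deprived replicate 1, are given above.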

How the results depend on the processing

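The count of genes called between food-deprived and normal GABA8 was 0 under 6 of 9 alternatives and 0 to 0 when each mouse was left out. It was 4 without the filter on low counts (Hspa1a and Car2 higher, Nts and Gm1821 lower), 22 with batch as replicate block and 2 in depleted libraries alone with that replicate block. Of the alternatives with 0, the limit of 5 GABA8 cells and the return of cells with shared barcodes leave the fit unchanged. The limit of 20 GABA8 cells gives the fit without normal replicate 2. These alternatives are no separate checks. Deviations from the group means in the same batch correlated weakly (r = 0.132 in batch 1 and 0.0894 in batch 2). The interaction called 0 genes with DESeq2, 0 with no replicate block, 3 in depleted libraries alone (Hspa1a, Vip and Pmch), and 0 to 2 when a mouse was left out, 0 without food-deprived replicate 1. In retained libraries alone it called 1, Vip, as lower. The cause of these changes was not tested. Fits in retained libraries leave out food-deprived replicate 1 and normal replicate 3. Those in depleted libraries hold food-deprived replicates 1 and 2 and normal replicates 3 and 4 only.

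The difference in the GABA8 share was -1.19 percentage points with all neurons as denominator, -0.238 with all annotated cells, -3.05 in depleted libraries alone and -2.79 within batches 1 and 2 (paired by the replicate block), and ranged from -3.89 to 7.95 when a mouse was left out. Avp in GABA8 was -0.10 in depleted libraries with the block and -0.23 to 0.54 without single mice. Vip, at 0.19 as fitted without a block, was 4.24 with batch as replicate block and 8.28 in depleted libraries with that block, both past the threshold, -0.61 in retained libraries and -0.37 to 4.82 without single mice. The Hspa1a difference kept its direction under every alternative run (0.28 to 3.47, adjusted p from 1.8e-07 to 1.0), and missed the threshold in retained libraries, without the mouse block (2.88), with DESeq2 (2.40) and without food-deprived replicate 1 (1.80). The numbers of genes at least 2-fold higher or lower than in other GABA clusters stayed within 1.5 times under all alternatives run. Over all alternatives of single named genes, 638 values were on the same side, 7 turned direction (Avp and Vip), 4 lost the threshold (Hspa1a), 2 gained it (Vip) and 13 without a test moved by more than their SD over mice. Over those of the main comparisons, 57 were alike, 8 moved and 6 turned direction, all 6 in the GABA8 share. Precision is limited by 3 and 4 mice and, in normal replicate 2, by 13 GABA8 cells and 21 other GABA cells.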
